A study of Mus musculus with 6 samples.

Results

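The genes described here are 10 genes that mark homeostatic microglia, the resting state of the brain's resident macrophages, taken by name from the 34745 genes of the deposited expression table. They are the receptors *Csf1r*, *Cx3cr1*, *P2ry12*, *P2ry13* and *Gpr34*, the surface proteins *Fcrls*, *Siglech* and *Tmem119*, the secreted protein *Olfml3* and the transcription factor *Sall1*, and the table held a row for each. Total RNA of the cerebral cortex was sequenced in mice at postnatal day 8. The 3 Pen-2 cKO libraries came from mice with Pen-2 F/F alleles and the hGFAP-Cre transgene, and the 3 control libraries from Pen-2 F/F mice without that transgene, so floxed alleles are common to all 6 libraries, and an effect of Cre itself cannot be told apart from one of losing Pen-2. PEN-2, encoded by *Psenen*, is a subunit of the γ-secretase protease. The human GFAP promoter that drives Cre is active in cortical radial glia and the cells that descend from them.

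Microglia arise from yolk sac progenitors and not from radial glia. Their survival depends on CSF1R signalling, and TGF-β together with the transcription factor SALL1 holds them in a state with high *P2ry12*, *Tmem119* and *Siglech*. Activated microglia and microglia of early postnatal white matter are known to carry less of these transcripts and more of phagocytic genes such as *Cd68*.

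*Psenen* was 3.56, 3.90 and 4.03 FPKM in cKO libraries and 6.35, 6.86 and 7.32 FPKM in control libraries (FPKM, fragments counted relative to gene length and library depth; limma adjusted p = 0.00441). The smallest steps between FPKM values gave depths of 25123100 to 26809300 fragments in cKO libraries and 20251900 to 24872600 in control libraries. Neuronal genes of the cortex were abundant in both groups, with *Slc17a7*, a vesicular glutamate transporter, at 204 ± 25.9 and *Neurod6* at 86.9 ± 10.8 FPKM in cKO libraries and at 209 ± 36.7 and 91.9 ± 7.01 FPKM in control libraries (SD, n = 3 each). The third cKO library stood apart in *Ttr*, the choroid plexus transthyretin gene, at 877 FPKM against 324 and 182 FPKM in the other cKO libraries and 33.1, 104 and 178 FPKM in control libraries. The labels do not say that each library came from a separate animal, so p-values measure the spread between these libraries.

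The upstream bases of the ADP receptor genes *P2ry12* and *P2ry13*, which neighbour each other on chromosome 3, and of *Siglech*, the only gene of the set below all control libraries in all cKO libraries, are shown first (RefSeq, GRCm38.p6, strand of the gene, 5′ to 3′, ending just before the RefSeq start or, for *Siglech*, before its first annotated exon). Capitals mark GAGGAA or GGAAGT, letters of the core bound by ETS factors such as PU.1, or their reverse complement.
P2ry12, chr3:59262986-59263235, minus strand: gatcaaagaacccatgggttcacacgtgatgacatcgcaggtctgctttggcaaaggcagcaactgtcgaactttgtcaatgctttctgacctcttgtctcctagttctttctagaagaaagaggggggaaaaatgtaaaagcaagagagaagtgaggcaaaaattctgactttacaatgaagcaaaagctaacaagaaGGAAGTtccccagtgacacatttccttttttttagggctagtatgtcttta
P2ry13, chr3:59210883-59211132, minus strand: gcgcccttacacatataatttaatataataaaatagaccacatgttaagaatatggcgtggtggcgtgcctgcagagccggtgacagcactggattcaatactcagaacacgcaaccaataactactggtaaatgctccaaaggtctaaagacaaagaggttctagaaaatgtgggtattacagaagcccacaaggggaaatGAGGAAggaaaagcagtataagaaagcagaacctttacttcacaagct
Siglech, chr7:55767934-55768177, plus strand: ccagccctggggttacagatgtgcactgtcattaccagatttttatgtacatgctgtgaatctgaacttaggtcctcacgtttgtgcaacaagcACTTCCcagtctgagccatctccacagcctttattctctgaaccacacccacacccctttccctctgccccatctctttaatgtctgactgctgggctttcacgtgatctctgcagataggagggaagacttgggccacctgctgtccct
The match began 51 bases upstream of the start in *P2ry12*, 48 in *P2ry13* and 156 in *Siglech*, in *Siglech* on the opposite strand. Of the 7 genes with an entry in the promoter table, 2 (*P2ry13* and *Fcrls*) held GAGGAA within 250 bases and 4 (*P2ry12*, *Siglech*, *Fcrls* and *Sall1*) held GGAAGT, on either strand. Over 32851 promoters the shares were 23.3% and 19.7%. These shares count promoters and not genes, so they are not on the same basis as the counts of genes. *Sall1* had several promoters, of which 1 held a match. Annotated exons covered all 250 upstream bases of *Cx3cr1* and 136 of those of *Fcrls*. None of the 7 held the joint ETS and IRF motif (GGAA, then NN, then GAAA), found in 2.30% of promoters, or TGCTGAC, the core letters of MAF factors, found in 3.81%. These matches describe the letters and do not show binding.

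Of the 10 genes, *Fcrls* alone rose in cKO cortex, 8 others did not pass the test and *Siglech* was too low to be tested. *Fcrls* was 1.51-fold higher, and *Siglech* had the lowest cKO to control ratio of the set, 0.558. Among all 14147 tested genes 5.53% passed an adjusted p of 0.05 (limma on log2(FPKM + 0.1), Benjamini-Hochberg over all tested genes), 3.67% as higher in cKO and 1.87% as lower. The split of those calls depends on the scaling, with 66.3% higher as deposited, 47.8% with median-ratio scaling and 78.8% with equal sums. The difference of mean log2 values was positive for 8 genes of the set and negative for *P2ry12* and *Siglech*, with a median of 0.21 over the 10, while 63.6% of tested genes had a positive difference and their median was 0.07. The cKO and control libraries did not overlap for *Fcrls*, which was higher in cKO, and for *Siglech*, which was lower. Separation in those directions was found in 15.6% and 6.78% of all 23331 genes with a value above 0, so it is not by itself particular to these genes. Over the 14147 tested genes the shares were 21.5% and 8.17%. In bulk tissue, fewer or more microglia and less or more RNA per cell cannot be told apart.

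**Figure D1:**
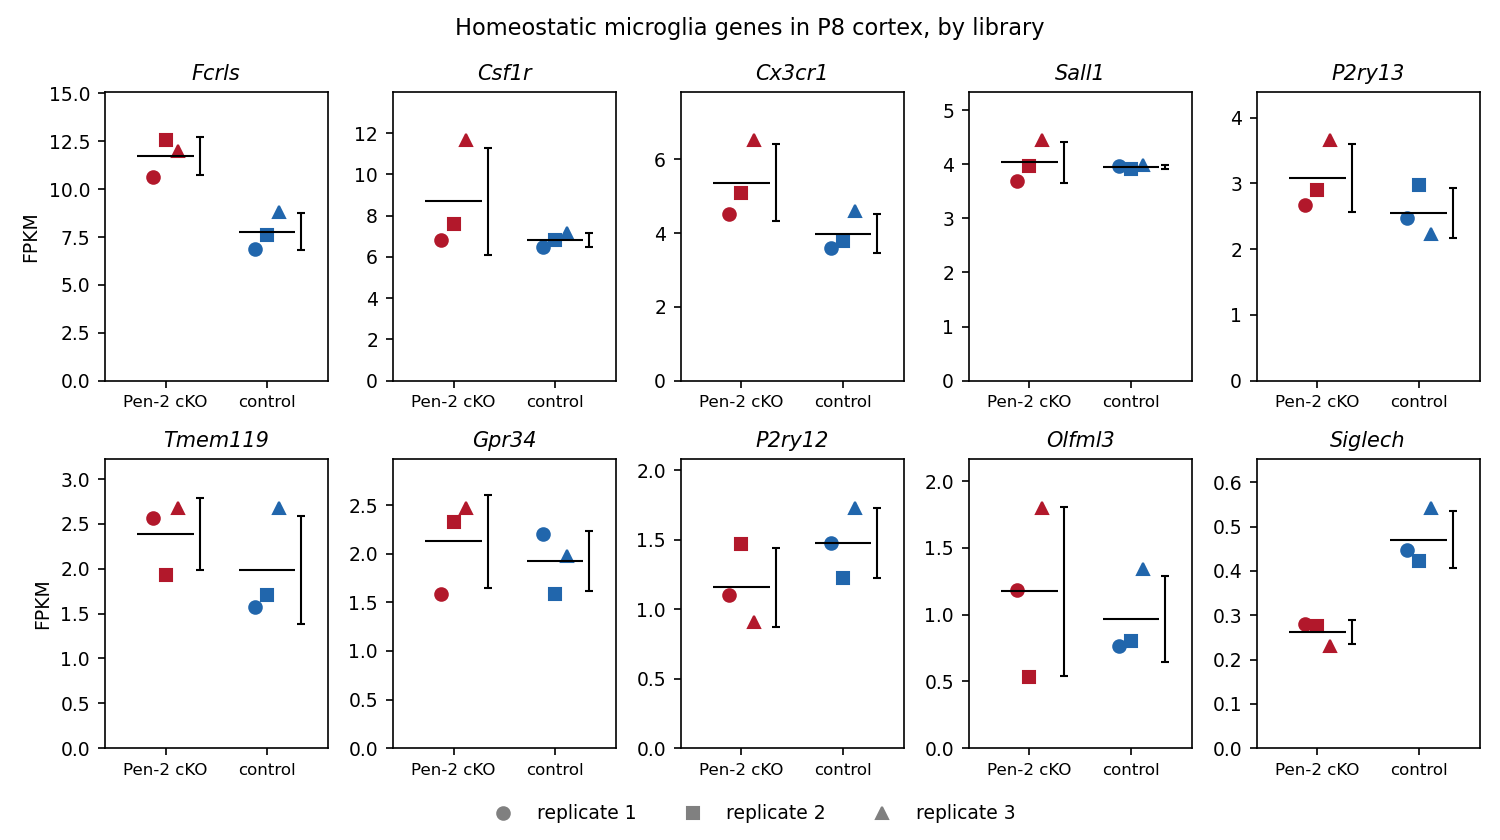
FPKM of each gene in the 3 Pen-2 cKO libraries (red, left) and the 3 control libraries (blue, right), with the group mean as a line, the SD as a bar beside it and a symbol for each replicate number; each panel has its own scale from 0. All cKO values of *Fcrls* (10.6 to 12.6) lie above all control values (6.90 to 8.81), all cKO values of *Siglech* (0.231 to 0.281) lie below all control values (0.422 to 0.543), and the groups of the other genes overlap.

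Among the receptors, *Csf1r*, the receptor for CSF1 and IL-34 (ENSMUSG00000024621, mm10 chromosome 18, 61105572 to 61132149), was 6.83, 7.58 and 11.7 FPKM in cKO libraries and 6.47, 6.80 and 7.16 FPKM in control libraries. The third cKO library was high and the other cKO libraries lay close to the controls. Its log2 fold change of 0.31 (SE 0.19, 95% interval -0.13 to 0.75) did not pass (limma adjusted p = 0.376), and without the third cKO library the log2 fold change was 0.08. *Cx3cr1*, the receptor for the neuronal chemokine CX3CL1 (ENSMUSG00000052336, chromosome 9, 119901616 to 120068283), was 4.52, 5.07 and 6.52 FPKM in cKO libraries and 3.59, 3.78 and 4.59 FPKM in control libraries. Only the lowest cKO and the highest control value crossed. The log2 fold change was 0.41 (SE 0.16, 95% interval 0.05 to 0.78), with an unadjusted limma p of 0.0325 and an adjusted p of 0.177, and it was 0.27 without the third cKO library.

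The ADP receptors had fold changes of opposite sign, and neither passed. *P2ry12*, which steers microglial processes toward released nucleotides (ENSMUSG00000036353, chromosome 3, 59216272 to 59262871), was 1.10, 1.47 and 0.906 FPKM in cKO libraries and 1.47, 1.23 and 1.73 FPKM in control libraries. The lowest value was in the third cKO library, in which most of the other genes were at their highest. Its log2 fold change was -0.34 (SE 0.21, 95% interval -0.83 to 0.15, limma adjusted p = 0.390), and -0.19 without that library. *P2ry13*, a related ADP receptor (ENSMUSG00000036362, chromosome 3, 59207892 to 59210882), was 2.68, 2.89 and 3.66 FPKM in cKO libraries and 2.47, 2.97 and 2.23 FPKM in control libraries. The second control library lay above 2 of the 3 cKO libraries, and the log2 fold change was 0.26 (SE 0.16, 95% interval -0.12 to 0.63, limma adjusted p = 0.390), and 0.13 without the third cKO library. *P2ry13* has a single annotated transcript, for which the depths gave 170, 191 and 248 fragments in cKO libraries and 135, 152 and 140 in control libraries, each within 0.1 of a whole number. All cKO libraries were deeper than all control libraries, so these fragment numbers, unlike FPKM, do not compare the groups. The exact Poisson 95% interval was 145 to 198 for the 170 fragments of the first cKO library and 113 to 160 for the 135 fragments of the first control library, for counting error alone. *Gpr34*, a lysophosphatidylserine receptor (ENSMUSG00000040229, chromosome X, 13632089 to 13640858), was 1.58, 2.33 and 2.48 FPKM in cKO libraries and 2.21, 1.59 and 1.98 FPKM in control libraries, which overlapped fully (log2 fold change 0.13, 95% interval -0.34 to 0.60). With 1 library left out its log2 fold change ran between 0.00062 without control replicate 2 and 0.32 without cKO replicate 1, and it was 0.0098 without cKO replicate 3.

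*Fcrls*, a scavenger receptor-like protein related to Fc receptors that marks mouse microglia (ENSMUSG00000015852, chromosome 3, 87250758 to 87263738), was 10.6, 12.6 and 12.002 FPKM in cKO libraries and 6.90, 7.62 and 8.81 FPKM in control libraries. Its means were 11.7 ± 0.998 FPKM in cKO and 7.78 ± 0.964 FPKM in control libraries (SD, n = 3 each), and unlike *Csf1r* it was not highest in the third cKO library. The log2 fold change was 0.59 (SE 0.11, 95% interval 0.34 to 0.85, limma adjusted p = 0.0261). The call ended without cKO replicate 2 (adjusted p = 0.102) or 3 (0.0661) and without control replicate 1 (0.0768) or 2 (0.101), while the log2 fold change stayed between 0.51 and 0.68. It also ended with median-ratio scaling (adjusted p = 0.0522) and with no mean-variance trend (0.0517).

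*Siglech*, a sialic acid-binding lectin that plasmacytoid dendritic cells also carry (ENSMUSG00000051504, chromosome 7, 55768178 to 55778925), was 0.281, 0.275 and 0.231 FPKM in cKO libraries and 0.447, 0.422 and 0.543 FPKM in control libraries. It was below 0.5 FPKM in all but 1 control library and so was left out of the main test, which asked for 0.5 FPKM in 3 libraries. Tested with no filter, the log2 difference was -0.65 (SE 0.20, 95% interval -1.11 to -0.19), with an unadjusted limma p of 0.0125 and an adjusted p of 0.163 over 23331 genes. Over its longest annotated transcript of 2301 bases the values correspond to about 16, 17 and 14 fragments in cKO libraries and 22, 20 and 31 in control libraries, which limits their precision. The gene has 8 annotated transcripts, so these fragment numbers are estimates.

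*Tmem119*, a transmembrane protein that sets microglia apart from other macrophages (ENSMUSG00000054675, chromosome 5, 113793729 to 113800516), was 2.56, 1.93 and 2.68 FPKM in cKO libraries and 1.58, 1.70 and 2.68 FPKM in control libraries. The highest values of both groups met, and the log2 fold change was 0.28 (95% interval -0.24 to 0.80, limma adjusted p = 0.511). It ran between 0.14 without control replicate 1 and 0.50 without control replicate 3. *Olfml3*, a secreted glycoprotein (ENSMUSG00000027848, chromosome 3, 103722222 to 103738001), was 1.19, 0.533 and 1.80 FPKM in cKO libraries and 0.763, 0.801 and 1.34 FPKM in control libraries. Its cKO libraries spanned the whole control range, the 95% interval of its log2 fold change was -0.80 to 1.11, and the sign turned without the third cKO library (-0.20). *Sall1*, the zinc finger repressor that maintains microglial identity and that neural progenitors also express (ENSMUSG00000031665, chromosome 8, 89027248 to 89044162), was 3.69, 3.98 and 4.44 FPKM in cKO libraries and 3.96, 3.91 and 3.99 FPKM in control libraries. The control libraries were nearly level and lay inside the cKO range. Its log2 fold change was 0.03 (95% interval -0.21 to 0.26), the narrowest interval of the set, and was negative with median-ratio scaling, with upper-quartile scaling and without the third cKO library.

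**Figure D2:**
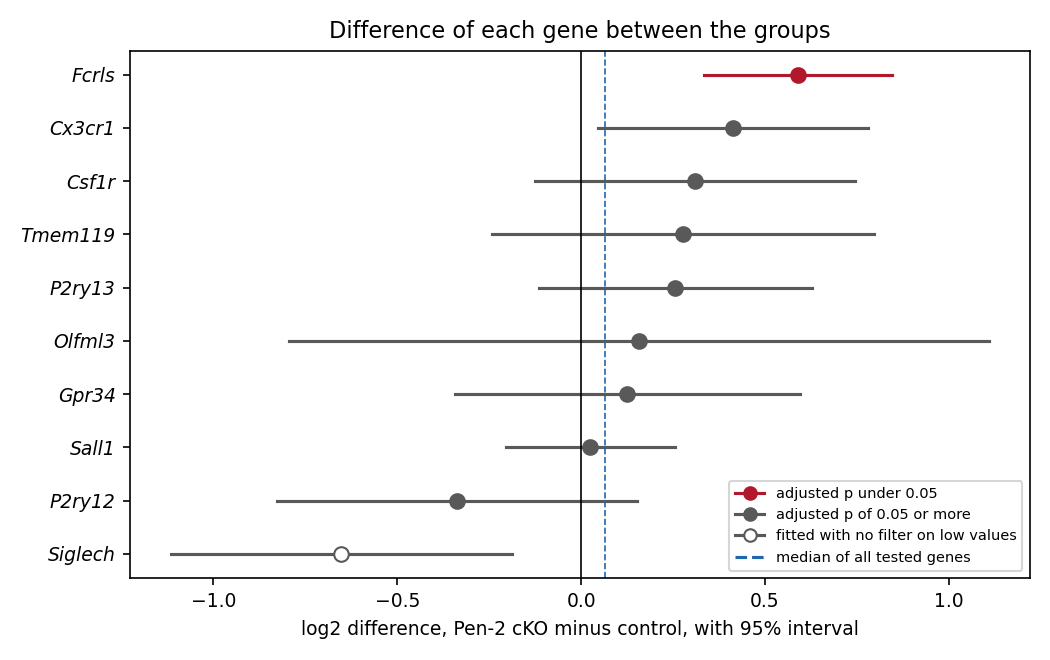
Log2 difference of each gene between Pen-2 cKO and control libraries (x axis, limma estimate with its 95% interval), with *Siglech* from the fit with no filter on low values and the median of all tested genes as a dashed line. *Fcrls* alone is past the threshold, at 0.59, and the estimates run from -0.65 for *Siglech* upward.

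Levels per kilobase kept nearly the same order in both groups. *Fcrls* was the most abundant of the 10 and *Siglech* the least in cKO and in control libraries, and the order was the same in both groups from *Fcrls* through *Csf1r*, *Cx3cr1*, *Sall1*, *P2ry13*, *Tmem119* and *Gpr34*. *P2ry12* was ninth and *Olfml3* eighth in cKO libraries, and the reverse in control libraries, where their ranges overlapped. The third cKO library was the highest of its group for 7 of the 10 genes and the lowest for *P2ry12* and *Siglech*. In the control group, replicate 3 was the highest for 8 genes.

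Within a library, *Fcrls* was 9.64, 8.56 and 13.3 times the level of *P2ry12* in cKO libraries and 4.68, 6.21 and 5.09 times in control libraries. The groups did not overlap. The pair was chosen after its values were seen, so the ratio is a description, and 20.7% of tested genes had ratios to *P2ry12* that were higher in all cKO libraries. *Fcrls* made up 30.3%, 32.5% and 25.9% of the summed FPKM of the 10 genes in cKO libraries and 23.1%, 24.7% and 25.1% in control libraries.

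Several of the genes overlap others in the genome, and whether counting used strand is not given in the sources used here. *P2ry12* and *P2ry13* lie inside *Med12l*, a Mediator subunit gene on the opposite strand, sharing 9 and 0 exonic bases with it (GENCODE M21). *Med12l* was 1.96 ± 0.122 FPKM in cKO and 1.95 ± 0.345 FPKM in control libraries (SD, n = 3 each). *Gpr34* lies inside *Cask* on the opposite strand with 0 shared exonic bases. *Csf1r* shares 873 of its 5774 exonic bases with *Hmgxb3* on the opposite strand, which was 11.9 ± 0.255 FPKM in cKO and 10.9 ± 1.08 FPKM in control libraries and did not pass (limma adjusted p = 0.395). Without strand, fragments from that overlap cannot be told apart. The range of *Cx3cr1* overlaps those of *Wdr48*, *Gorasp1*, *Ttc21a*, *Csrnp1* and *Xirp1* but the gene shares 0 exonic bases with any of them.

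Of 17 tested pan-myeloid genes, which microglia share with other macrophages, 3 rose and none fell, with a median log2 fold change of 0.66 beside 0.07 over all tested genes. *Tyrobp*, a signalling adaptor, was 26.6, 28.9 and 38.0 FPKM in cKO libraries and 18.1, 19.1 and 16.0 FPKM in control libraries (log2 fold change 0.80, SE 0.14, limma adjusted p = 0.0198). *Cd53*, a leukocyte tetraspanin, rose by 0.87 and *Cd68*, a lysosomal protein of phagocytes, by 1.10 on the log2 scale (limma adjusted p = 0.0224 and 0.0418). For 13 of the 18 genes all cKO libraries lay above all control libraries, against 15.6% of all genes with a value and 21.5% of tested genes. None of the 3 calls held without cKO replicate 2 or without control replicate 1 or 2. The summed level of the 18 genes was 137, 149 and 243 FPKM in cKO libraries and 93.2, 102 and 107 FPKM in control libraries, so the third cKO library was the highest here too.

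Set against that sum within each library, the 10 homeostatic genes together came to 25.7%, 25.9% and 19.1% in cKO libraries and 32.0%, 30.3% and 32.6% in control libraries. All cKO values lay below all control values. Undivided, the 10 genes summed to 35.05, 38.6 and 46.4 FPKM in cKO libraries. In control libraries they summed to 29.9, 30.8 and 35.04 FPKM, so all cKO sums lay higher, the lowest only narrowly. The mean percent in cKO libraries was 0.744 times that in control libraries, and 0.815 times without the third cKO library. After the same division the median log2 difference over tested genes was -0.693, a larger fall than that of the 10 genes summed. Taken singly, 6 of the 10 (*P2ry12*, *P2ry13*, *Cx3cr1*, *Csf1r*, *Sall1* and *Siglech*) were lower in all cKO libraries on this scale. That share is near the background, since 68.5% of tested genes were lower in the same way once divided by a sum that was itself 1.75 times as high in cKO libraries. Divided by the geometric mean of the 18 genes instead, 5 of the 10 were lower in all cKO libraries, as were 57.4% of tested genes. *Csf1r* had close values within each group, at 4.998%, 5.08% and 4.80% in cKO libraries and 6.94%, 6.67% and 6.66% in control libraries. *P2ry12* was 0.806%, 0.983% and 0.373% in cKO libraries and 1.58%, 1.21% and 1.61% in control libraries. *Fcrls* overlapped, at 7.78%, 8.42% and 4.94% in cKO libraries and 7.40%, 7.49% and 8.19% in control libraries. The sum includes *Cd68*, named above among phagocytic genes, which itself rose in cKO libraries. These ratios show unequal change within a library and not a change of any gene by itself.

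**Figure D3:**
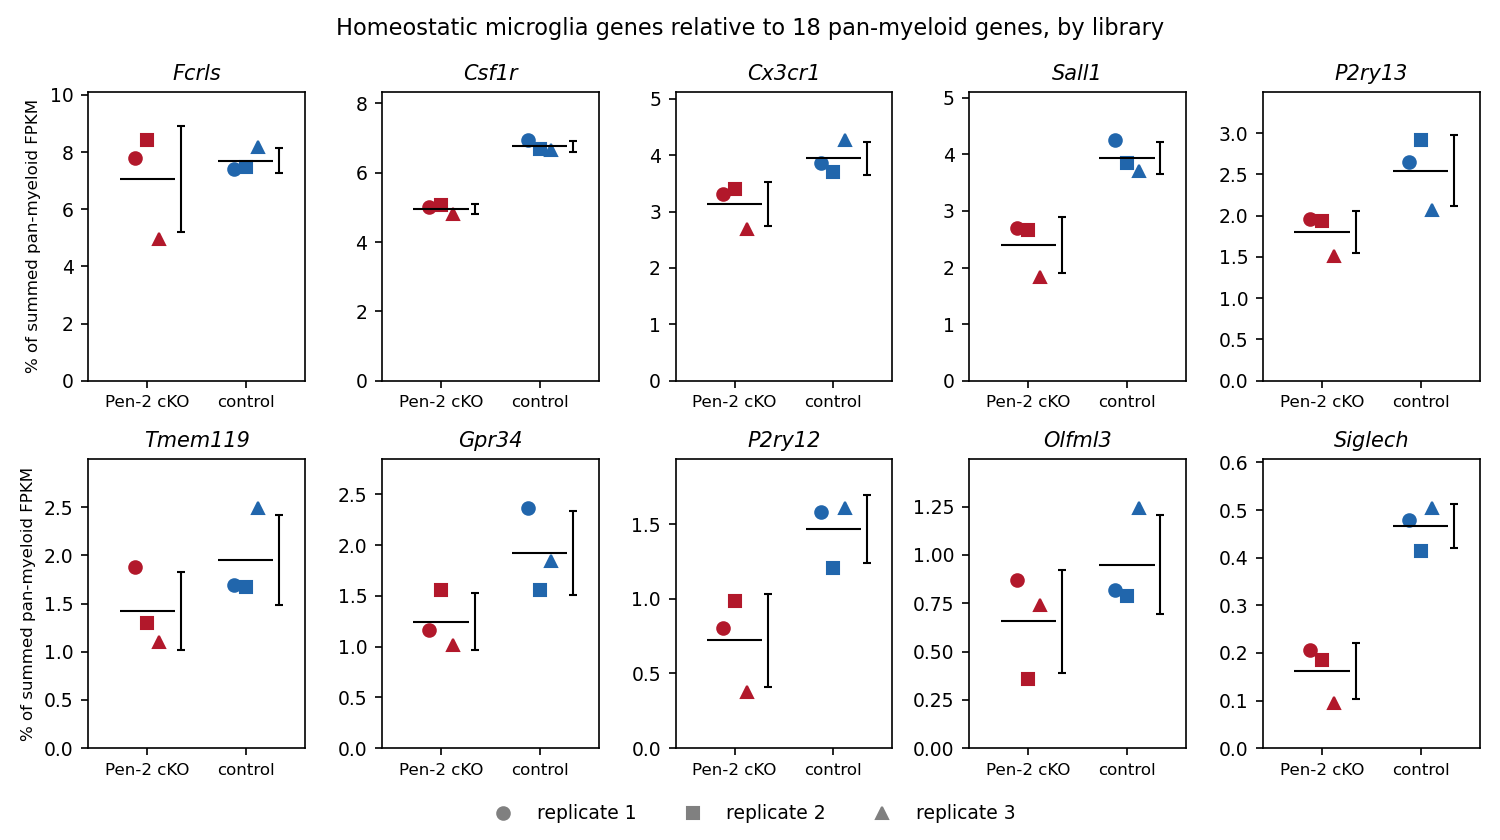
Each gene's FPKM as a percent of the summed FPKM of 18 pan-myeloid genes in the same library, for 3 Pen-2 cKO (red, left) and 3 control libraries (blue, right), with the group mean as a line, the SD as a bar and each panel on its own scale from 0. *Csf1r* separates the groups at 4.80% to 5.08% in cKO and 6.66% to 6.94% in control libraries, while *Fcrls* overlaps.

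Of 17 tested genes in a second homeostatic microglia list, 2 rose and 1 fell (median log2 fold change 0.29). *Lgmn*, a lysosomal endopeptidase, was 46.0 ± 4.02 FPKM in cKO and 33.9 ± 0.960 FPKM in control libraries, and *Golm1*, a Golgi membrane protein, was 8.17 ± 0.455 FPKM in cKO and 6.11 ± 0.477 FPKM in control libraries (SD, n = 3 each). Their log2 fold changes were 0.43 and 0.41 (limma adjusted p = 0.0176 and 0.0410). *Lgmn* kept its call in 12 of 16 alternatives and *Golm1* in 6 of 16, with *Golm1* at an adjusted p of 0.0889 with median-ratio scaling and 0.0696 with upper-quartile scaling, and lost it without any 1 library other than control replicate 3. *Cst3*, the secreted protease inhibitor cystatin C, fell to 95.7, 88.0 and 118 FPKM in cKO libraries, against 233, 263 and 255 FPKM in control libraries (log2 fold change -1.32, SE 0.11, limma adjusted p = 0.00125). Astrocytes also carry *Cst3*, and the astrocyte list beside it had 5 of 7 genes lower, with a summed level of 98.5 to 153 FPKM in cKO and 290 to 379 FPKM in control libraries; its part in the difference of *Cst3* was not tested. With 1 library left out, 0 to 2 genes of the list rose and 1 to 3 fell.

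None of 14 tested ligand and TGF-β signalling genes passed the limma test (median log2 fold change 0.14). The CSF1R ligand genes *Csf1* and *Il34* were 1.31 ± 0.337 and 5.09 ± 1.09 FPKM in cKO libraries and 1.16 ± 0.254 and 5.50 ± 0.674 FPKM in control libraries. *Cx3cl1*, which encodes the ligand of CX3CR1, varied widely within each group, at 6.96, 73.4 and 75.3 FPKM in cKO libraries and 29.2, 32.0 and 80.5 FPKM in control libraries. *Tgfb1* was 1.25, 1.10 and 1.56 FPKM in cKO libraries and 0.664, 0.553 and 0.845 FPKM in control libraries, which did not overlap (log2 fold change 0.84, limma adjusted p = 0.0620). *Tgfbr2*, its receptor, was 4.60 ± 0.644 FPKM in cKO and 2.85 ± 0.555 FPKM in control libraries (log2 fold change 0.68, adjusted p = 0.0614), and *Itgav*, an integrin chain that takes part in TGF-β activation, was 1.05 ± 0.396 FPKM in cKO and 1.90 ± 0.0447 FPKM in control libraries (log2 fold change -0.86, adjusted p = 0.0823). With 1 library left out, 0 or 1 gene was higher and 0 or 1 lower. None of 8 tested purine signalling genes passed either (median 0.34), with *Panx1*, a nucleotide release channel, at 20.9 ± 1.49 FPKM in cKO and 19.5 ± 0.712 FPKM in control libraries, and *Adora2a*, an adenosine receptor, at 23.3 ± 5.03 FPKM in cKO and 13.1 ± 5.01 FPKM in control libraries (log2 fold change 0.89, limma adjusted p = 0.168).

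Among 11 tested transcription factors of microglia, *Bhlhe40* fell and none rose (median log2 fold change 0.26). *Bhlhe40* was 3.62 ± 0.157 FPKM in cKO and 4.87 ± 0.221 FPKM in control libraries (log2 fold change -0.42, limma adjusted p = 0.0403), a call that no fit with 1 library left out kept. Neurons also express this gene. *Spi1*, which encodes PU.1, was 1.37, 1.73 and 1.91 FPKM in cKO libraries and 0.937, 0.956 and 1.45 FPKM in control libraries (adjusted p = 0.170). *Irf8*, its partner in the myeloid lineage, was 0.941, 0.764 and 1.18 FPKM in cKO libraries and 0.416, 0.399 and 0.575 FPKM in control libraries, a log2 fold change of 0.91 that did not pass (adjusted p = 0.0624). Only 1 control library reached 0.5 FPKM, so *Irf8* was among the tested genes because of its high cKO values.

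Of 13 tested genes of activated microglia, *Cd9* and *Ccl4* rose and *Fabp5* fell (median log2 fold change 0.21). *Cd9*, a tetraspanin, was 38.7 ± 5.36 FPKM in cKO and 22.7 ± 0.424 FPKM in control libraries (log2 fold change 0.76, limma adjusted p = 0.00771). *Fabp5*, a fatty acid-binding protein, was 64.3 ± 2.74 FPKM in cKO and 87.0 ± 4.71 FPKM in control libraries (log2 fold change -0.43, adjusted p = 0.00872), and the chemokine gene *Ccl4* was 0.717 ± 0.134 FPKM in cKO and 0.173 ± 0.118 FPKM in control libraries. Other glial cells also express *Cd9* and *Fabp5*. The third cKO library stood out for *Gpnmb*, at 1.01, 1.18 and 5.44 FPKM in cKO libraries and 0.241, 0.449 and 0.210 FPKM in control libraries, and for *Clec7a*, at 0.557, 0.635 and 2.43 FPKM in cKO libraries and 0.185, 0.282 and 0.299 FPKM in control libraries; neither passed (limma adjusted p = 0.0767 and 0.115). Both genes mark phagocytic microglia. Of the 13 tested genes 10 had a positive log2 fold change. *Apoe* and *Axl* were negative beside *Fabp5*, at -1.03 and -0.71 (limma adjusted p = 0.352 and 0.152). All cKO libraries lay above all control libraries for 9 of the 15 genes of the list and below for 1. The shares were 15.6% and 6.78% of all genes with a value, and 21.5% and 8.17% of tested genes. *Ccl4*, *Gpnmb* and *Clec7a* reached the filter through the cKO libraries alone, where they were high, so their presence among the tested genes depends on the difference itself.

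Other macrophages and blood cells can carry *Csf1r* and *Cx3cr1*. Of 7 tested border macrophage genes, *Folr2* rose, at 1.84 ± 0.712 FPKM in cKO and 0.632 ± 0.183 FPKM in control libraries (log2 fold change 1.38, limma adjusted p = 0.0433), a call that no fit with 1 library left out kept. Its first control library was at 0.429 FPKM, so *Folr2* would not have reached the filter through the control libraries alone. *Mrc1* was 1.46 ± 0.453 FPKM in cKO and 1.68 ± 0.274 FPKM in control libraries, *Lyve1* was 0.822 ± 0.166 FPKM in cKO and 1.04 ± 0.305 FPKM in control libraries, and *Cd163* was below 0.5 FPKM in every library. *Stab1* and *Ms4a7*, like *Folr2*, were higher in all cKO than in all control libraries. That held for 3 of the 11 genes, beside 15.6% of all genes with a value and 21.5% of tested genes. In the other direction 0 were separated. The summed level of the 11 genes was 7.66 to 14.02 FPKM in cKO and 8.23 to 10.1 FPKM in control libraries. None of 10 blood leukocyte genes reached the filter, and they summed to 0.420 to 1.04 FPKM in cKO and 0.360 to 0.933 FPKM in control libraries; *S100a9* and *Plac8* had the highest means, and *Ly6c2* was listed at 0 in all cKO libraries and 2 of the control libraries. Meningeal fibroblast genes rose in 3 of 7 cases, with sums of 49.6 to 99.4 FPKM in cKO and 27.0 to 32.0 FPKM in control libraries, but 1 rose without cKO replicate 1, control replicate 1 or control replicate 2. Of 8 mural and endothelial genes 2 rose, and 0 with median-ratio scaling, with upper-quartile scaling, with no filter, or without any 1 library other than control replicate 3. Oligodendrocyte lineage genes rose in 7 of 8 cases, with sums of 299 to 384 FPKM in cKO and 107 to 140.5 FPKM in control libraries. The part of these cells in the values of the 10 genes was not tested.

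**Figure D4:**
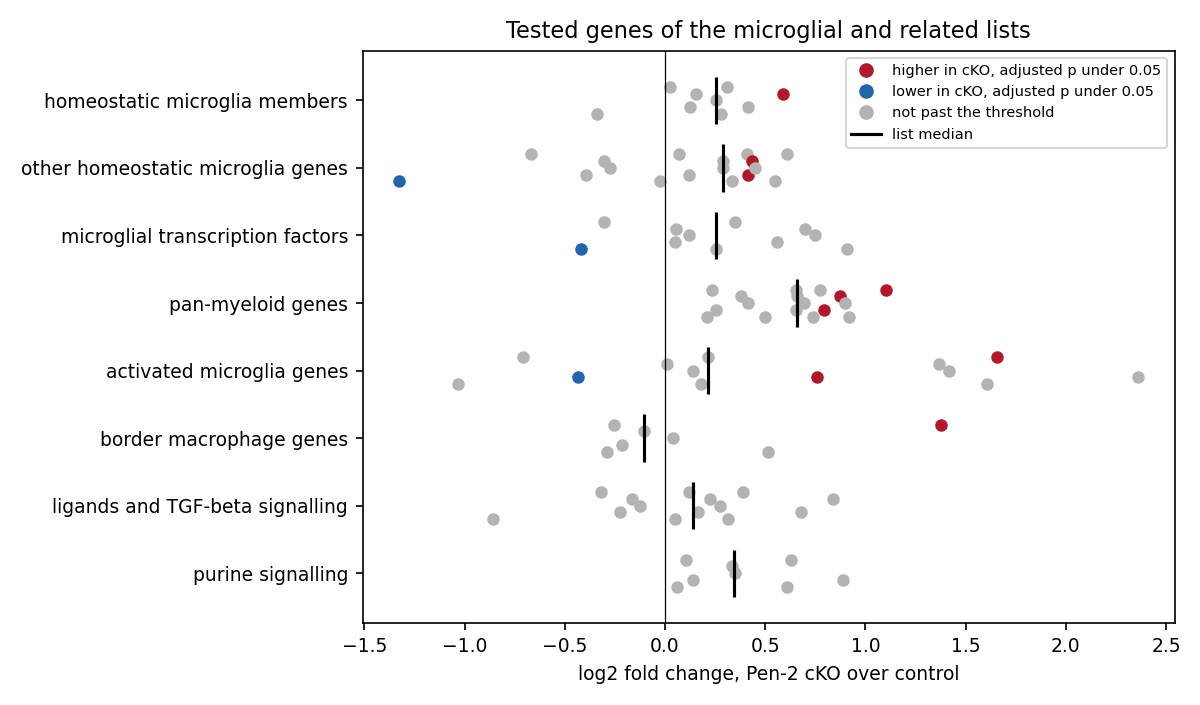
Log2 fold change of each tested gene (x axis, Pen-2 cKO over control) in 8 lists (rows), with the list median as a black bar and genes past the threshold in red where higher and blue where lower in cKO. The pan-myeloid median of 0.66 lies above the median of 0.26 over the 9 tested genes of the homeostatic set.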

How the data were processed

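RNA sequencing of total RNA from 3 Pen-2 cKO and 3 control cortex samples was used. The deposited values are FPKM made by the authors, per the file headers, on mm10, per the submitters' processing notes. The sources used here do not give the aligner, counting program or strand setting. All 6 tables of single libraries repeat the values of the table of the whole series. The group values and q-values are also the authors' own and come with no stated test.

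log2(FPKM + 0.1) was tested with limma 3.58.1 in R 4.3.3 (mean-variance trend, robust variance), group as the only term, on the 14147 genes that reached 0.5 FPKM in 3 libraries or more; the pseudocount makes fold changes of low genes too small. Steps were tested on simulated data. Depth was read from FPKM steps in single-transcript genes over 1500 bases. Ranges are those of the table, counted from 1.

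The members and lists were chosen with earlier results of these data known. By rule, the genes to name were the members and genes overlapping a member. From each list they were up to 4 called genes by p, or else the 2 most abundant. Not all of these are named above. Left out were *Smad4*, *Hes5* (neural progenitor list, lower in cKO) and *Gad1* (cortical neuron list, higher in cKO). Also left out were the called genes of the astrocyte, oligodendrocyte lineage, meningeal fibroblast, and mural and endothelial lists. Other genes and the ratios within a library were chosen after their values were seen. Among those genes are *Psenen*, *Slc17a7*, *Neurod6*, *Csf1*, *Il34*, *Tgfb1*, *Tgfbr2*, *Itgav*, *Spi1*, *Irf8*, *Gpnmb*, *Clec7a*, *Mrc1*, *Lyve1*, *Cd163*, *Ly6c2* and *Ttr*. Of 2 rows named *Itgam*, that with the higher mean was used. Alternatives varied pseudocount, filter, scaling, variance options, a replicate block and the omission of single libraries. Sums and ratios were made in Python 3.11.15 (pandas 2.3.3).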

Additional observations from a re-analysis of the deposited data

How the results depend on the processing

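The number of genes called over the whole table was 783, and 499 with no filter on low values; leaving out 1 library gave 210 to 813, lowest without control replicate 2. Calls higher and lower in cKO were 519 and 264 (66.3% higher), against 314 and 343 with median-ratio scaling (47.8%), 351 and 346 with upper-quartile scaling (50.4%) and 907 and 244 with equal sums (78.8%). Of the 10 homeostatic microglia genes 1 was called, and 0 with median-ratio scaling or with no mean-variance trend; leaving out 1 library gave 0 or 1. *Fcrls* kept its direction in all 16 alternatives and its call in 10 of them (adjusted p 0.0131 to 0.102). None of the other 8 tested members passed under any alternative. The estimate of *Sall1* turned to -0.042 with median-ratio scaling and -0.032 with upper-quartile scaling. With 1 library left out it ran between -0.045 and 0.086, that of *Olfml3* between -0.20 and 0.59, and that of *Cx3cl1* between -0.89 and 0.81 (-0.32 with all libraries), none past the threshold; *Sall1* and *Olfml3* turned without cKO replicate 3, and *Cx3cl1* without cKO replicate 1 (0.81) or control replicate 3 (0.15); the cause was not tested. With the replicate number as a block, 456 genes were called over the table and *Fcrls* kept its call (adjusted p = 0.0332). Same-numbered libraries deviated together with correlations across genes of 0.06, 0.01 and 0.10, so the numbers were not taken as pairs. Divided by the geometric mean of the pan-myeloid genes, an alternative added after the data were seen, 5 of the 10 members were lower in all cKO libraries, beside 57.4% of tested genes, and 6 were lower after leaving the 3 most abundant genes out of the sum. Depth limits *Siglech*, with about 14 to 31 fragments a library.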

Other observations

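In the authors' deposited table *Fcrls* is the only gene of the 10 with a call, as higher in cKO (q = 0.0284). It is followed by *Csf1r* (q = 0.0535) and *Cx3cr1* (q = 0.0616). Over all 34745 genes the authors called 593 (1.71%) as higher and 112 (0.322%) as lower in cKO. The group values in the authors' deposited table are not the means of the 3 libraries, and whether values beyond these 3 libraries enter them is not known here. The authors' deposited cKO value lies above all 3 cKO libraries for all 10 genes, at 26.0 FPKM for *Fcrls*, 14.8 FPKM for *Csf1r* and 8.55 FPKM for *Cx3cr1*, while it does so for 19.1% of tested genes. The authors' deposited control value lies above all 3 control libraries for *Sall1* alone among the 10 and for 4.28% of tested genes. Across 21755 genes with a cKO value above 0 in a library, the authors' deposited cKO value was below 0.25 times the sum of the 3 libraries in 0 genes and equal to it in 1912 genes (the ratio within 0.0001 of 0.25). The same held for control values, with 0 below and 2281 equal among 21734 genes. Folds made from these group values therefore differ from folds over the 3 libraries: *Fcrls* is 26.0 against 8.48 FPKM in the authors' deposited table and 11.7 against 7.78 FPKM over the libraries.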
